A study of Homo sapiens with 12 samples.

Results

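MER4 elements are the remnants of a group of class I endogenous retroviruses, family ERV1 in the repeat annotation. They were chosen by name alone: every element on its own RNA strand whose subfamily was MER4-int, or MER4 followed by a letter from A to E. The 12 libraries listed 5727 such elements with sense-strand counts, out of 1509971 elements of 6 repeat classes and 65833 of the ERV1 family. They fell into 13 subfamilies. The internal parts MER4-int and MER4B-int made up 1524 of the elements, and the other 11 subfamilies, all long terminal repeats (LTRs), made up 4203.

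A retroviral insertion consists of an internal part, which once encoded the viral proteins, between a pair of LTRs that carry a promoter and a polyadenylation signal. Most old insertions have decayed or recombined down to a single LTR, and many lie within introns, where they are transcribed as part of the host gene. ZC3H18 is a nuclear zinc finger protein that links the cap of new transcripts to the NEXT complex, an adaptor that feeds unstable RNA to the exosome for decay.

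RNA bound to V5-tagged protein was measured by PAR-CLIP, in which cells take up 4-thiouridine (4sU), are crosslinked by UV light and yield their RNA with the protein on an anti-V5 pulldown. Cells of the established human melanoma line A375 were transiently transfected with V5-tagged Clover (the control, a fluorescent protein), with full-length ZC3H18 (Z18fl), with truncated ZC3H18 (Z18trunc), or with truncated ZC3H18 whose zinc finger aromatic residues were mutated (Z18truncZnFmut). Labelling began 24 h after transfection in all groups, each had 3 libraries, and no label names a change to the cells' own ZC3H18. The labels do not say whether the libraries came from separate cultures, so p-values measure only the spread between them. Transgenes came from plasmids in a mixed population. The repeat counts hold no gene-level values, so neither the transgenes nor melanoma markers were analysed here. A count reflects both how much of an RNA was present and how much of it was pulled down, and in these bulk samples fewer cells with an RNA and less RNA per cell cannot be told apart.

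Elements of MER4-int, the subfamily that rose, are shown as stretches of hg38, 5′ to 3′ on the strand of the element, where AATAAA, the core polyadenylation signal, is in capitals. The first is from the MER4-int stretch near the end of chromosome 14 that the study followed, chr14:105039599-105039898 (+). The second is from the element that led the MER4-int rise, in an intron of PLEKHB2, chr2:131268257-131268556 (+).
MER4-int, chromosome 14: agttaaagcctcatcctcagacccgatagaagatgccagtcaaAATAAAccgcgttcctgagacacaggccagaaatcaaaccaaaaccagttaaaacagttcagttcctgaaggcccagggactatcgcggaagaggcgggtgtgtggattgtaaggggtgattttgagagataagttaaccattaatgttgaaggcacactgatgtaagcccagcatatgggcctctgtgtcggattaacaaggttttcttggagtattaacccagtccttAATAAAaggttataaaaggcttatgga
MER4-int, PLEKHB2: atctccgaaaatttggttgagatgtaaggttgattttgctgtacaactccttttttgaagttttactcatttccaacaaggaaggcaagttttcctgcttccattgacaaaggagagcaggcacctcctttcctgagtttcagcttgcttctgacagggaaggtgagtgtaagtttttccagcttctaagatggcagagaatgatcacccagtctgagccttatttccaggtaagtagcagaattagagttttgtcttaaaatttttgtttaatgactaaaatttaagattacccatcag
The chromosome 14 stretch held the signal 2 times in its 300 bases and the PLEKHB2 stretch did not hold it. The PLEKHB2 element has close relatives, and its closest, chr2:130070369-130070668 (-), differed at 2 of the same 300 bases, which are in capitals here.
MER4-int, closest copy: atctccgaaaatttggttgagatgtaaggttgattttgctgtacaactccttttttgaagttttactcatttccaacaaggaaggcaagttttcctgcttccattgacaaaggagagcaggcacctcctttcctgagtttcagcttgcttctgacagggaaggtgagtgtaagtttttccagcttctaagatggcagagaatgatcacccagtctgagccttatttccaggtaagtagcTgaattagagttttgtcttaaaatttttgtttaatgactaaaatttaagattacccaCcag

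Relative to aligned fragments, MER4 elements as a whole had higher mean levels with each ZC3H18 construct than with Clover, although the mutant's libraries overlapped with the control's. Counts scaled to the aligned fragments of each library (CPM) were 74.6, 60.3 and 61.3 in the Clover libraries. They were 78.7, 81.4 and 84.8 with Z18fl, 80.3, 82.0 and 100.8 with Z18trunc, and 72.1, 87.1 and 283.6 with Z18truncZnFmut. No Z18fl or Z18trunc library overlapped with Clover, while Z18truncZnFmut replicate 1 lay below the highest Clover library and replicate 3 stood far above every other library. The means were 65.4 ± 7.99 for Clover, 81.6 ± 3.07 for Z18fl, 87.7 ± 11.4 for Z18trunc and 147.6 ± 118.0 for Z18truncZnFmut (SD, n = 3 each). The ratio to Clover was 1.25 for Z18fl and 1.34 for Z18trunc (1.24 without Z18trunc replicate 3). For Z18truncZnFmut it was 2.26, and 1.22 without replicate 3. A two-sided exact permutation test of 3 libraries against 3 cannot go below p = 0.1, which both Z18fl and Z18trunc reached (adjusted p = 0.38 over 30 such tests). For Z18truncZnFmut the exact p was 0.2. The direction depends on what the counts are scaled to. Scaled to the counts on all repeat elements, the mean differed from that of Clover by -79.7 for Z18fl and -111.0 for Z18trunc (exact permutation p = 0.5 for each). Those counts were a small part of the aligned fragments, so all levels on this scale are far larger than CPM. The sizes of these differences therefore cannot be set against the CPM values, only their direction.

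**Figure D1:**
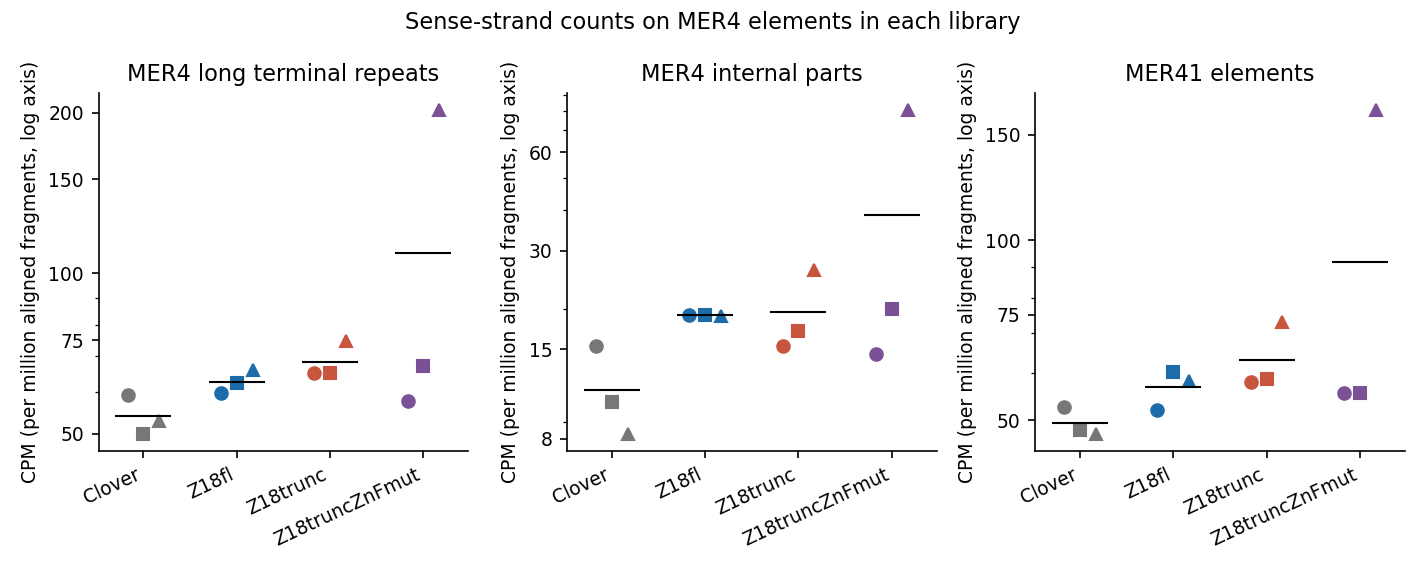
CPM (log axes) of MER4 LTRs, MER4 internal parts and MER41 elements in each library. Circles, squares and triangles are replicates 1, 2 and 3, and lines are group means. Z18truncZnFmut replicate 3 lies far above the other libraries in all 3 panels.

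Z18truncZnFmut replicate 3 listed 3778 MER4 elements, against 408 to 1249 in the other libraries, and 2530 elements had counts in that library alone. Single counts were common everywhere: 46.3% to 63.2% of the elements listed in a library had at most 1 count. The aligned fragments ranged from 16683132 to 25686948 per library, so a count of 0 allows up to 0.117 to 0.180 CPM (3 counts). That limit and the intervals given here cover counting error only. Z18trunc replicate 3 was the next furthest from the rest, with 1249 elements.

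The increase was larger for the internal parts than for the LTRs. Internal parts, where the viral genes lay, gave 15.3, 10.4 and 8.26 CPM with Clover and 19.1, 19.1 and 19.0 CPM with Z18fl, a ratio of means of 1.69. LTRs gave 59.3, 49.9 and 53.0 CPM with Clover and 59.6, 62.3 and 65.8 CPM with Z18fl, a ratio of 1.16. The Z18fl libraries were above all Clover libraries for both kinds. The nearest values were 19.0 and 15.3 CPM for the internal parts and 59.6 and 59.3 CPM for the LTRs. The Clover libraries themselves ran from 8.26 to 15.3 CPM for the internal parts. The log2 ratio of internal to LTR counts was -2.30 ± 0.37 with Clover, -1.71 ± 0.08 with Z18fl, -1.84 ± 0.30 with Z18trunc and -1.69 ± 0.34 with Z18truncZnFmut (SD, n = 3 each). Z18fl and Clover did not overlap in this ratio (exact permutation p = 0.1, the smallest possible). Z18trunc and Z18truncZnFmut did overlap with Clover (exact permutation p = 0.2 for each). The difference of 0.59 between Z18fl and Clover was 0.39 with unique reads (exact permutation p = 0.2) and 0.23 over elements with a mean mapping score of at least 90 (exact permutation p = 0.6). For Z18trunc, 0.46 became 0.09 over those elements (exact permutation p = 0.9).

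Other ERV1 elements did not follow one course. MER41 elements, a smaller group with 3150 members, had ratios to Clover of 1.15 with Z18fl and 1.28 with Z18trunc. MER57 elements, with 2739 members, had ratios of 0.851 and 0.963. The remaining ERV1 internal parts had ratios of 0.759 and 0.885, below 1 where the MER4 internal parts had 1.69 and 1.73. Without Z18trunc replicate 3, the Z18trunc ratio was 0.915 for the remaining ERV1 internal parts and 1.43 for the MER4 internal parts. The remaining ERV1 LTRs, 40188 elements, had 1.11 and 1.18, near the 1.16 and 1.26 of the MER4 LTRs and the 1.12 and 1.17 of the whole LTR class. Against all ERV1 elements outside the MER4 group, the log2 ratio of MER4 counts was -5.79 ± 0.16 with Clover, -5.36 ± 0.01 with Z18fl and -5.41 ± 0.20 with Z18trunc (SD, n = 3 each). Neither construct overlapped with Clover in this measure (exact permutation p = 0.1 for each, adjusted p = 0.38), which was added after the values were seen. Among all LTR-class counts the MER4 share was 0.982% ± 0.082 with Clover and 1.09% ± 0.02 with Z18fl (SD, n = 3), and these libraries overlapped (exact permutation p = 0.2).

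The rise with Z18fl was carried mainly by introns. By GENCODE 44, 1383 of the elements lay in introns of genes on their own strand, 120 in exons, 1304 antisense to a gene and 2920 between genes. Intronic elements gave 26.8 ± 3.16 CPM with Clover, 37.4 ± 2.04 with Z18fl and 37.5 ± 1.10 with Z18trunc (SD, n = 3). Exonic elements gave 11.8 ± 1.97, 13.2 ± 0.38 and 12.1 ± 1.69 CPM in the same groups. The exonic level was close to that of Clover in both, and in Z18truncZnFmut, replicate 3 included, it was 12.3 ± 0.82 CPM.

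The intron share of MER4 counts was 40.2%, 39.3% and 43.5% with Clover and 44.8%, 46.1% and 46.4% with Z18fl. No Z18fl library overlapped with the Clover libraries (p = 0.1 by the exact permutation test, adjusted p = 0.38). The highest Clover share had a 95% Wilson interval of 40.6% to 46.5%, which takes in all 3 Z18fl shares. The share was 45.1%, 46.5% and 37.8% with Z18trunc and 42.3%, 42.7% and 26.3% with Z18truncZnFmut. Both low values belong to replicate 3, where elements between genes reached 39.6 CPM with Z18trunc and 135.5 CPM with Z18truncZnFmut, against 17.3 to 28.0 CPM elsewhere. The AT content of MER4 elements weighted by counts was also highest in these libraries, 59.3% and 60.5%, against 57.8% to 58.7% in the rest. The part of these shifts in the group values was not tested.

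**Figure D2:**
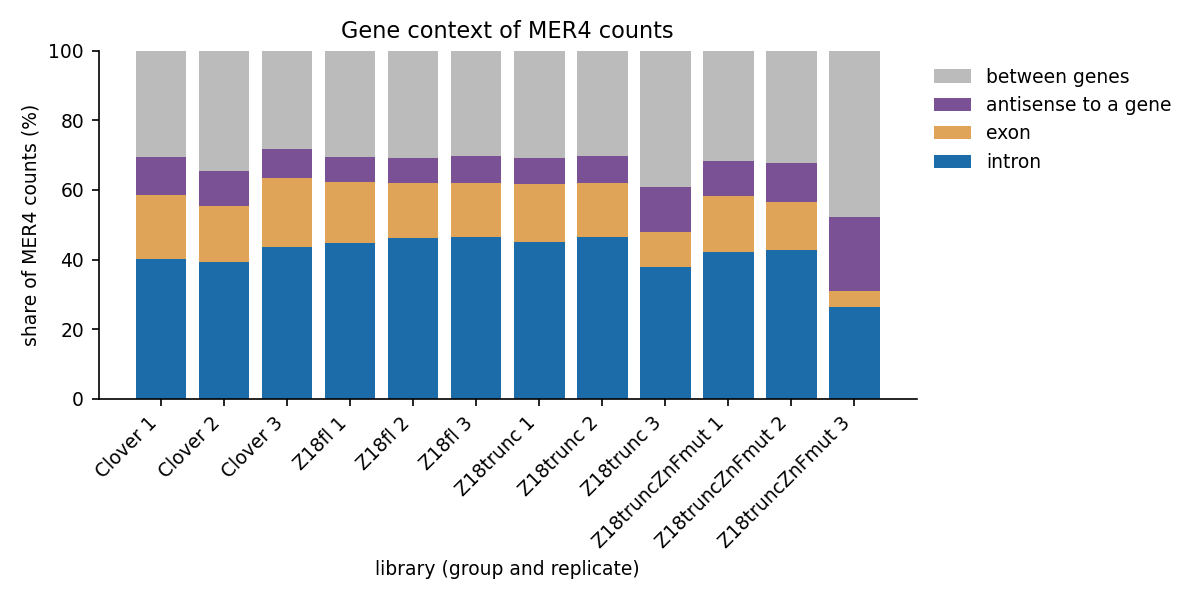
Share of MER4 counts (%) in introns, exons, antisense to a gene and between genes, for each library. Replicate 3 of Z18trunc and of Z18truncZnFmut have the smallest intron shares, 37.8% and 26.3%.

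Subfamilies were tested with edgeR after TMM scaling, which sets the middle of all repeat features near 0 rather than counting against aligned fragments. All 13 MER4 subfamilies passed the filter on low counts. With Z18fl, 1 rose (20.1% of the 915 subfamilies tested were called higher) and 3 fell (20.1% were called lower). The median log2 fold change of the MER4 subfamilies was -0.16 and that of all subfamilies -0.01. The median of the LTR-class subfamilies lay between these values, nearer to that of MER4. Subfamilies of that class were also called lower more often than higher. Most of this shift was therefore shared with the LTR class and not particular to MER4.

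MER4-int, the internal part of the group, was the subfamily that rose. Its counts were 167, 116 and 84 with Clover and 309, 321 and 342 with Z18fl. It also had 248, 263 and 449 counts with Z18trunc and 226, 267 and 1356 with Z18truncZnFmut. In CPM every Z18fl and Z18trunc library was above the highest Clover library, and Z18truncZnFmut replicate 1 was not. The log2 fold change of MER4-int was 0.46 ± 0.15 with Z18fl (SE, adjusted p = 0.024), 0.40 ± 0.19 with Z18trunc (adjusted p = 0.16) and 0.64 ± 0.31 with Z18truncZnFmut (adjusted p = 0.30). The other internal subfamily, MER4B-int, had -0.04 ± 0.15 with Z18fl.

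The Z18fl call on MER4-int ended when only uniquely mapping reads were counted (adjusted p range over all alternatives 0.00032 to 0.39), when all 12 libraries shared a fit, without Clover replicate 3 and without Z18fl replicate 1. Part of the rise came from 1 family of copies, described with the single elements.

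The LTR subfamilies MER4D0, MER4D1 and MER4A1_ fell with Z18fl. MER4D0 had 45, 46 and 50 counts with Clover and 51, 48 and 53 with Z18fl, in larger libraries, and its log2 fold change was -0.84 ± 0.19 (SE, adjusted p = 0.0019). MER4D1 had 149, 144 and 129 counts with Clover and 177, 166 and 221 with Z18fl, with -0.54 ± 0.11 (SE, adjusted p = 0.0013). MER4A1_ had 95, 72 and 74 counts with Clover and 97, 125 and 118 with Z18fl, with -0.45 ± 0.15 (SE, adjusted p = 0.027). These falls are relative to the other repeats. With library sizes set to aligned fragments, which moved the median of all subfamilies from -0.01 to 0.45, MER4D0 had -0.37, MER4D1 -0.07 and MER4A1_ 0.02, and none of the 3 was called. The MER4A1_ call also ended in DESeq2, with unique reads, with all 12 libraries, and without Clover replicate 1, Z18fl replicate 1 or Z18fl replicate 3.

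On that scale 4 subfamilies rose with Z18fl and none fell: MER4-int (0.92), MER4B-int (0.42), MER4A1 (0.40) and MER4B (0.34).

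With Z18trunc, 1 subfamily fell (11.9% of 925 were called lower) and 0 rose (14.5% were called higher, a smaller share in the LTR class). It was MER4A1_, with 86, 110 and 107 counts against 95, 72 and 74 with Clover and a log2 fold change of -0.64 ± 0.18 (SE, edgeR adjusted p = 0.012). The call ended without Clover replicate 1. On the aligned-fragment scale its value was -0.15 and was not called, while MER4-int (0.90), MER4B-int (0.57), MER4B (0.54) and MER4A1 (0.46) rose. With Z18truncZnFmut, 0 of 13 subfamilies were called (1.3% of all were called), with 1 lower at an unadjusted p under 0.05. In DESeq2 the MER4 count was also 0, while 50 of 921 subfamilies were called higher and 28 lower. The low share of calls in edgeR depended on Z18truncZnFmut replicate 3. Without that library 98 of 895 subfamilies were called higher and 51 lower, and still 0 of MER4.

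**Figure D3:**
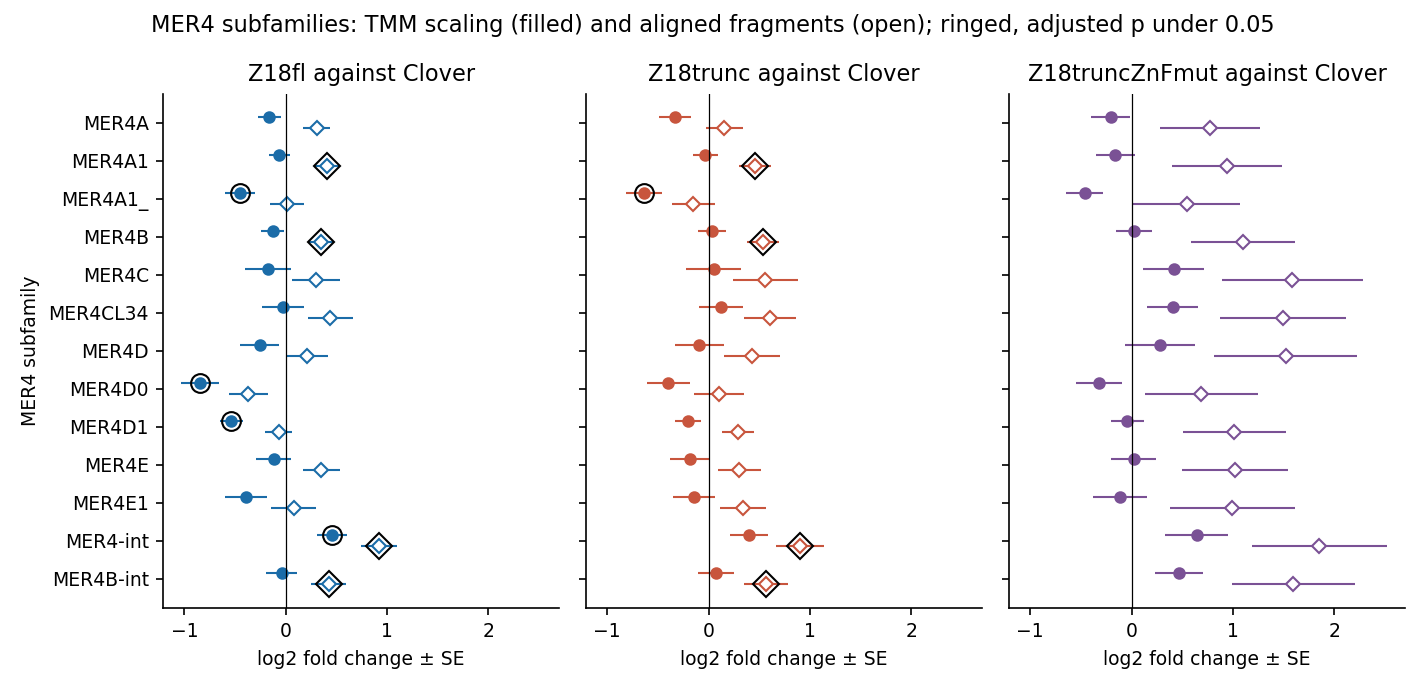
Log2 fold change ± SE of the 13 MER4 subfamilies for each construct against Clover. Filled circles use TMM scaling, open diamonds library sizes from aligned fragments, and black rings mark adjusted p under 0.05. Open diamonds lie to the right of filled circles throughout, and MER4-int is furthest right with Z18fl on both scales.

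Few single MER4 elements had enough reads to test. Only 33 of 5727 passed the filter in at least 1 comparison, and they held 21.5% of all MER4 counts. With Z18fl, 18 were tested, of which 2 rose (28.3% of 12098 elements of all classes were called higher) and 2 fell (24.6% were called lower). LTR-class elements were called higher less often than elements of all classes here, and lower more often. Both MER4 elements that rose lie in introns and both that fell lie in exons. Of the 18 tested, 9 lay in introns and 7 in exons. Both that rose had too few Clover counts for the filter and passed it through their Z18fl libraries alone. An element that low with Clover was tested only where Z18fl was higher, so the filter favoured the direction of these calls. Calls on other repeats were not split in this way, so whether the pattern is particular to MER4 was not tested. On the aligned-fragment scale, which moved the median of all elements from 0.01 to 0.48, 4 of 20 tested were called higher and 1 lower. The 2 further elements called higher there, chosen after their values were seen, were a MER4A1 element in CTDP1 on chromosome 18 (1.62, edgeR adjusted p = 0.011) and a MER4-int element between genes on chromosome 22 (1.74, adjusted p = 0.026) that is a near copy of the PLEKHB2 element. Only 2 of the 97 counts on this chromosome 22 element were unique, so its level is uncertain. Both further elements also passed the filter through their Z18fl libraries alone. The YTHDF1, ARHGAP29 and chromosome 3 elements described next were chosen after their values were seen, because no called element reached the mapping score required for naming.

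The PLEKHB2 element (MER4-int, chr2:131268134-131268680) had 5, 5 and 5 counts with Clover and 36, 34 and 27 with Z18fl. It had 23, 28 and 12 counts with Z18trunc and 14, 13 and 15 with Z18truncZnFmut. All libraries of each ZC3H18 construct lay above all Clover libraries in CPM. The log2 fold change with Z18fl was 1.84 ± 0.41 (SE, edgeR adjusted p = 0.0012), and all 11 alternatives that gave a value kept this call. PLEKHB2 encodes a membrane protein with a pleckstrin homology domain. The other repeat elements on the sense strand of this gene, 116 in number, gave 23.1 ± 3.62 CPM with Clover, 50.1 ± 1.75 with Z18fl, 38.0 ± 2.05 with Z18trunc and 30.7 ± 1.76 with Z18truncZnFmut (SD, n = 3), so the rest of the gene's repeats had the same order of groups. How much of the change in the element is that of its host gene was not tested.

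Of the 18 near copies of this element (at least 90% identity over at least 80% of its length), 17 lie between genes and 1 in an exon of POTEM, with identities of 93.3% to 99.5%. Unique reads made up 41.03% of the counts on the PLEKHB2 element and 38.5% of those on the whole family, so the split between copies depends on SQuIRE's assignment. Summing over all 19 removes the split among them, but whether reads were shared with elements outside the 19 was not checked. The sums were 27, 22 and 20 with Clover and 95, 106 and 114 with Z18fl. They were 81, 85 and 69 with Z18trunc, and 63, 51 and 65 with Z18truncZnFmut. In CPM the groups did not overlap at all: 1.36 ± 0.25 with Clover, 4.38 ± 0.25 with Z18fl, 3.28 ± 0.32 with Z18trunc and 2.55 ± 0.13 with Z18truncZnFmut (SD, n = 3). Here Z18truncZnFmut replicate 3 did not stand apart. The family was assembled after the values were seen, so no test of it is given.

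Without the family, MER4-int as a whole had 140, 94 and 64 counts with Clover and 214, 215 and 228 with Z18fl. The log2 ratio of mean CPM for Z18fl over Clover then went from 0.92 to 0.65, and the 2 groups still did not overlap. For Z18trunc it went from 0.90 to 0.80, with overlap.

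The YTHDF1 element, a MER4A1_ in an intron of that gene, had 0, 0 and 6 counts with Clover and 18, 26 and 40 with Z18fl. It had 15, 8 and 17 counts with Z18trunc and 3, 14 and 17 with Z18truncZnFmut. In CPM the Z18fl libraries were all above the Clover libraries, and those of the other constructs overlapped with Clover replicate 3. The log2 fold change was 2.89 ± 0.69 (SE, edgeR adjusted p = 0.0020), and all 12 alternatives kept the call, with values from 2.28 to 7.50, the highest without Clover replicate 3. Clover replicates 1 and 2, at 0, allow up to 0.180 and 0.175 CPM, against 0.777 to 1.56 CPM with Z18fl. YTHDF1 encodes a reader of N6-methyladenosine in RNA. No near copy was found, and 73.2% of the counts were unique. The other 4 repeat elements on the gene's sense strand had 3, 3 and 4 counts with Clover and 16, 10 and 12 with Z18fl.

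The element that fell in GUF1 (MER4A1_, chr4:44700150-44700713), which encodes a mitochondrial translation factor, had 32, 25 and 34 counts with Clover and 21, 29 and 32 with Z18fl. In CPM the Z18fl libraries lay below all Clover libraries. Its log2 fold change was -0.99 ± 0.28 (SE, edgeR adjusted p = 0.0064) on the TMM scale and -0.63 on the aligned-fragment scale, where it was not called. Leaving out Z18fl replicate 1 also ended the call. The other 12 repeat elements of GUF1 gave 2.33 ± 0.07 CPM with Clover and 1.29 ± 0.13 with Z18fl (SD, n = 3).

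These MER4A1_ elements pull their subfamily in opposite directions: its log2 ratio of mean CPM for Z18fl over Clover was 0.02 in all, 0.31 without the GUF1 element and -0.35 without the YTHDF1 element, with overlapping libraries in each case.

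The UBA6-DT element, a MER4B in an exon of that long noncoding RNA, had 21, 23 and 35 counts with Clover and 27, 17 and 18 with Z18fl. In CPM all Z18fl libraries lay below all Clover libraries, although the counts overlap. The log2 fold change was -1.18 ± 0.33 (SE, edgeR adjusted p = 0.0059) on the TMM scale and -0.82 on the aligned-fragment scale. It was not called with uniquely mapping reads only, without the filter on low counts or without Z18fl replicate 3.

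With Z18trunc, 21 elements were tested, of which 0 were higher at an unadjusted p under 0.05. LTR-class elements were called higher less often than elements of all classes, and lower more often. A balance towards falls was therefore not particular to MER4. None of the 21 rose (22.5% of 13204 elements of all classes were called higher) and 4 fell (13.4% were called lower). These were the GUF1 element (-0.99 ± 0.30, adjusted p = 0.015), the UBA6-DT element (-0.84 ± 0.31, adjusted p = 0.038), a MER4E1 element in an exon of ARHGAP29 on chromosome 1 (-1.66 ± 0.58, adjusted p = 0.031) and a MER4E element between genes at chr3:191805937-191806681 (-1.47 ± 0.52, adjusted p = 0.032; log2 fold change ± SE). The ARHGAP29 element had 8, 7 and 7 counts with Clover and 6, 3 and 3 with Z18trunc. The other 59 repeat elements on that gene's sense strand did not fall, with 6.90 ± 0.39 CPM with Clover and 7.15 ± 0.93 with Z18trunc (SD, n = 3). The chromosome 3 element had 21, 7 and 13 counts with Clover and 13, 10 and 3 with Z18trunc. This element and the ARHGAP29 element had too few Z18trunc counts for the filter. Both passed it through their Clover libraries, which were smaller, so the filter favoured the direction of these calls. DESeq2 called 0 of the 4. On the aligned-fragment scale the GUF1 element had -0.64, the UBA6-DT element -0.49 and the chromosome 3 element -1.13, none of them called, and the ARHGAP29 element was not tested. The ARHGAP29 call was kept by 0 of the 7 alternatives that gave a value, the UBA6-DT call by 3 of 12, the chromosome 3 call by 4 of 11 and the GUF1 call by 6 of 12. Leaving out Clover replicate 3 ended each of the 4. The PLEKHB2 and YTHDF1 elements did not pass the filter in this comparison on the TMM scale. On the aligned-fragment scale the PLEKHB2 element did, through its Z18trunc libraries alone. It was the 1 element of 21 called higher (1.57, edgeR adjusted p = 0.015).

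With Z18truncZnFmut, 0 of 11 elements tested were called (17.1% of 10152 were called in either direction), and 1 was lower at an unadjusted p under 0.05. DESeq2 also called 0.

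**Figure D4:**
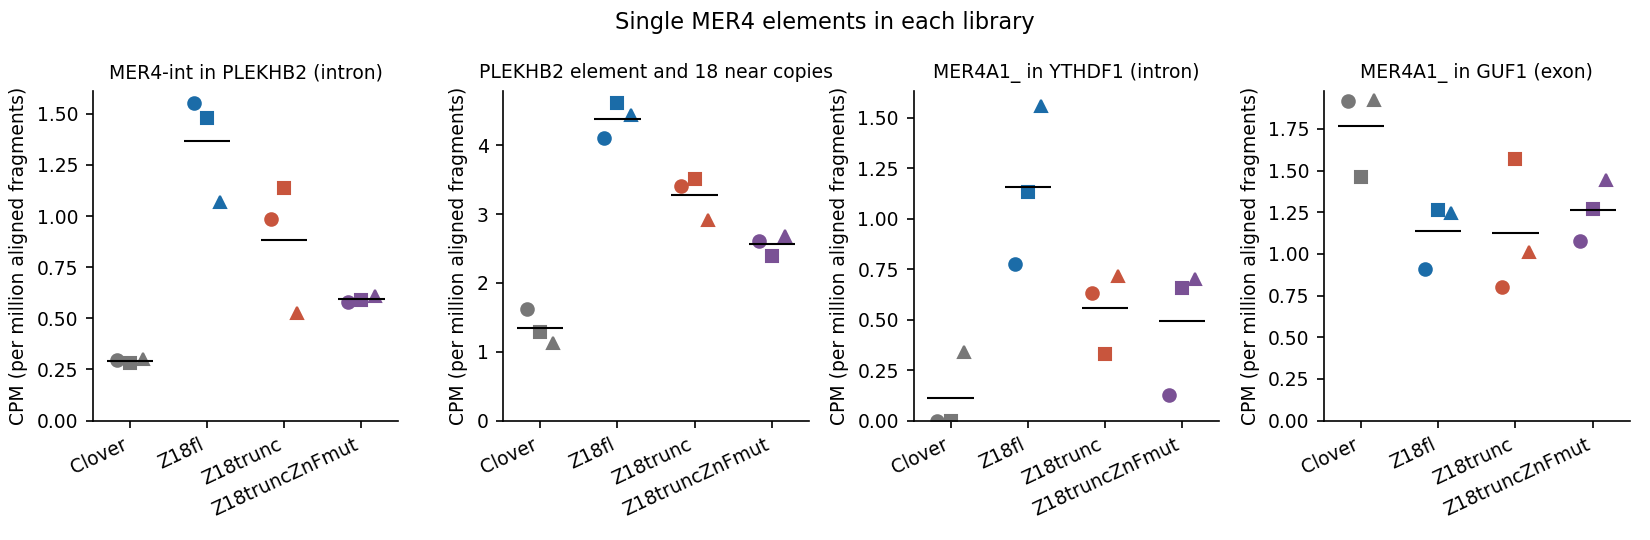
CPM of the PLEKHB2 element, of that element with its near copies, of the YTHDF1 element and of the GUF1 element. Points are replicates as in the plot of group levels and lines are means. The family of PLEKHB2 copies separates all 4 groups.

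Between the ZC3H18 constructs, MER4 elements showed little that passed the test. For Z18trunc against Z18fl, 0 of 28 elements were called (5.74% of 19413 were), with 5 lower at an unadjusted p under 0.05. The median log2 fold change of these 28 elements was -0.39 against 0.01 for all elements. The median of LTR-class elements was also negative and lay between these values, so part of the shift was shared with that class. The YTHDF1 element had -1.11 ± 0.35 (SE, edgeR adjusted p = 0.062) and the PLEKHB2 element -0.72 ± 0.31 (adjusted p = 0.16). No subfamily was called (3.9% of 948 were), with MER4D0 (0.42) and MER4D1 (0.31) higher at an unadjusted p under 0.05. The MER4 subfamilies, which hold all MER4 counts, had a median of 0.11, with 9 of 13 above 0 (median -0.02 with uniquely mapping reads only). The lower median of the tested elements therefore does not hold for the group as a whole. For Z18truncZnFmut against Z18trunc, 0 of 22 elements (0.719% of 16833 were called) and 0 of 13 subfamilies (0% of 957) were called in edgeR, with 2 elements higher and 0 subfamilies past an unadjusted p under 0.05. DESeq2 called 0 in each of these 4 cases.

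The MER4-int stretch near the end of chromosome 14, 9 elements over chr14:105033004-105039940 in no annotated gene, was thinly covered. Its summed counts were 5, 0 and 4 with Clover, 6, 6 and 7 with Z18fl, 10, 8 and 10 with Z18trunc, and 7, 9 and 14 with Z18truncZnFmut. In CPM the means were 0.175 ± 0.156, 0.264 ± 0.007, 0.391 ± 0.053 and 0.430 ± 0.144 (SD, n = 3). The Z18trunc libraries lay above all Clover libraries, and the Z18fl libraries overlapped with Clover. No element of the stretch had enough counts to be tested. Most counts fell on chr14:105034048-105034778 and chr14:105039558-105039940. Of the 86 counts, 72 were unique.

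The MER4 elements with the highest mean CPM were mostly inside genes, 6 of the top 8, and these 8 held 3.25% to 16.7% of MER4 counts per library. The first was a MER4B element in an intron of JRK on chromosome 8, with 32, 33 and 36 counts with Clover and 46, 61 and 55 with Z18fl, a log2 fold change of -0.16 ± 0.24 on the TMM scale and 0.20 on the aligned-fragment scale. The GUF1 and UBA6-DT elements came next. A MER4D1 element in an intron of NPIPB4, from a multigene family, had 304.8 counts in all, of which 0.328% were unique, so its level is uncertain. A MER4E and a MER4A1_ element lie near each other between genes on chromosome 13, and neither was called in any comparison. The MER4A1 element in SDHAP4 had 26, 9 and 22 counts with Clover and 29, 22 and 36 with Z18fl. Per kilobase the JRK element had 3.35 CPM with Clover and the PLEKHB2 element 0.535.

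Of the 67 members with at least 50 counts, 50.7% lay in introns and 22.4% in exons, against 24.1% and 2.10% of all members. Well-covered elements of all classes had similar shares, 53.7% in introns and 18.6% in exons of the 38784 elements with at least 50 counts. The median AT content of the 67 was 57.8%, against 50% for all those 38784 elements and 52.7% for LTR elements among them. AATAAA on the RNA strand was searched in the 300 bases centred on each element, which take in flanking sequence where the element is shorter. Median lengths were 562 bases for the 67, 305 for all those elements and 541 for those of the LTR class. The signal was present in 22.4%, 26.1% and 18.3% of these windows. Overlaps of the signal with itself were counted once per element, and a match says only that the letters are there. Among all MER4 members it was present in 38.3% of internal parts and 24.0% of LTRs.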

How the data were processed

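Anti-V5 PAR-CLIP libraries (12, in 4 groups of 3 by title) were trimmed by the authors with cutadapt 4.6, per the labels' processing notes, and quantified with SQuIRE on hg38. The deposited totals are expected counts, which hold the unique reads plus a share of multimapping reads, and the deposited uniquely mapping reads and aligned fragments are counts. The deposited score is the percent of an element's alignable reads that were assigned to it. FPKM columns were not used. Sense-strand expected counts were rounded and fitted over all elements of 6 classes with edgeR 4.0.16 (R 4.3.3; TMM, filterByExpr with a minimum count of 10 and total of 15, 6 libraries per comparison), which was tested on simulated data. Benjamini-Hochberg adjusted p under 0.05 was called. Single values per library were compared with two-sided exact permutation tests, 30 in 1 family. CPM used aligned fragments. GENCODE 44 gave gene context (exon at 50% of the length, otherwise the element's middle), and positions count from 1. Sequences are from the hg38 genome, and those of some named elements are not reported here. Other steps used Python 3.11.15 (scipy 1.17.1, pandas 2.3.3, pysam 0.24.0).

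Members and lists were chosen with earlier results of these data known. Named were all subfamilies, the chromosome 14 stretch, the 8 elements of highest mean CPM, and called elements whose groups did not overlap with at least 20 mean counts and a score of at least 90, which 0 elements met. Alternatives were DESeq2 1.42.0, aligned-fragment library sizes, no filter, unique reads, all 12 libraries in one fit, a replicate block, a score of at least 90, scaling to counts on elements, and leaving out each library.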

Additional observations from a re-analysis of the deposited data

Results flagged for a closer look

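Reads on the strand opposite to the MER4 elements, which the comparisons above do not use, were higher with every ZC3H18 construct than with Clover. They came to 74.9, 64.8 and 61.4 CPM with Clover, 102.3, 101.1 and 103.5 with Z18fl, 91.4, 102.5 and 128.0 with Z18trunc, and 85.1, 95.3 and 281.4 with Z18truncZnFmut. The means were 67.0 ± 7.01, 102.3 ± 1.195, 107.3 ± 18.8 and 153.9 ± 110.5 CPM (SD, n = 3), and without Z18truncZnFmut replicate 3 the mean of that group was 90.2. All libraries of each construct lay above all Clover libraries (exact permutation p = 0.1 for each, the smallest possible). The ratios to Clover, 1.53 with Z18fl and 1.60 with Z18trunc, exceeded the sense-strand ratios, and the sense share fell from 49.3% ± 0.99 with Clover to 44.4% ± 0.80 with Z18fl and 45.1% ± 1.47 with Z18trunc (SD, n = 3, exact permutation p = 0.1 for each, adjusted p = 0.38). For Z18truncZnFmut it was 48.0% ± 2.16 (exact permutation p = 0.4).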

How the results depend on the processing

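The replicate block (replicate number as a block) called 2 MER4 elements with Z18trunc against Clover in place of 4 and changed no other count of calls. Same-numbered libraries correlated above 0.1 in 2 of 15 pairs and best with their own number in 2 of 15. Both pairs above 0.1 were of Z18truncZnFmut against Z18trunc (0.39 for replicate 1 and 0.58 for replicate 3, against 0.094 for replicate 2), where both replicate 3 libraries stood apart. As no comparison had all 3 pairs above 0.1, the numbers were not taken to pair libraries.

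For elements called with Z18fl against Clover, the count of 4 (2 higher, 2 lower) became 9 with all 12 libraries in one fit (3 higher, 6 lower). For Z18trunc the count of 4, all lower, became 0 with DESeq2, 1 higher with aligned-fragment library sizes, 1 higher without the filter, 1 lower with unique reads, and 7 with all 12 libraries (3 higher, 4 lower). For Z18truncZnFmut, 0 became 1 with all 12 libraries, and for Z18trunc against Z18fl 0 became 1 with unique reads. For subfamilies with Z18fl, 4 became 2 with unique reads and 2 with all 12 libraries; with Z18trunc, 1 became 4 with aligned-fragment library sizes. On that scale values changed sign with a call on one side for MER4A1 (0.40 with Z18fl, 0.46 with Z18trunc), MER4A1_ (0.016), MER4B-int (0.42) and MER4B (0.34) with Z18fl. The cause of these changes was not tested.

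Scaled to counts on all elements instead of aligned fragments, the group level differed from Clover by -79.7 with Z18fl and -111.0 with Z18trunc, and Z18trunc from Z18fl by -31.3 (exact permutation p = 0.5, 0.5 and 0.8). Levels on that scale are far larger than CPM, so these sizes are not comparable with differences in CPM. Restricted to scores of at least 90, the intron share difference for Z18trunc against Clover was -1.34 points, and the log2 ratio to other ERV1 for Z18trunc against Z18fl differed by 0.19.

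Leaving out 1 library gave 5 to 11 called elements with Z18fl (11 without Clover replicate 2, 10 without Clover replicate 1), 1 to 6 with Z18trunc (1 higher without Clover replicate 3 or Z18trunc replicate 3, 1 lower without Z18trunc replicate 1 or 2), 0 to 1 with Z18truncZnFmut and 0 to 1 for Z18trunc against Z18fl. Called subfamilies ranged from 2 to 5 with Z18fl (2 without Z18fl replicate 1), 1 to 2 with Z18trunc, and 0 to 2 for Z18trunc against Z18fl. The group CPM differed by -0.50 to 9.75 for Z18trunc against Z18fl and -8.06 to 97.7 for Z18truncZnFmut against Z18trunc. The share of LTR counts differed by -0.015 to 0.065 and -0.11 to 0.33 points, the internal to LTR log2 ratio by -0.029 to 0.32 for Z18truncZnFmut against Z18trunc, and the intron share by -6.72 to 1.47 points for Z18truncZnFmut against Clover and -4.33 to 0.043 for Z18trunc against Z18fl. The log2 ratio to other ERV1 differed by -0.16 to 0.0073 and -0.27 to 0.40, and the sense share by -0.12 to 1.23 points for Z18trunc against Z18fl. Without both replicate 3 libraries, chosen after seeing the data, Z18truncZnFmut against Z18trunc gave -1.51 CPM, -0.059 points of the LTR share and -0.16 in the log2 ratio to other ERV1.

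With few reads per element, 33 MER4 elements passed the filter on low counts in at least 1 comparison, and 39 did where all 12 libraries shared a fit.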
